A study of Solanum lycopersicum with 27 samples.

Results

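The transcripts of 6 tomato genes of abscisic acid (ABA) synthesis and breakdown were followed through 27 RNA-seq libraries of fruits. The genes were picked by their identifiers, with earlier results of these data known. NCED1 (Solyc07g056570.1) and NCED2 (Solyc08g016720.1) stand for synthesis. CYP707A1 (Solyc04g078900.3), CYP707A2 (Solyc08g005610.3), CYP707A3 (Solyc04g071150.3) and UGT75C1 (Solyc09g092500.1) stand for breakdown and inactivation. They are 6 of the 34075 genes of the deposited table. All 6 reached at least 1 FPKM (sequenced fragments, scaled to the gene's length and the library's size) in at least 3 libraries, as did 18906 genes in all, which were the genes tested.

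ABA is a plant hormone made from carotenoids. NCED enzymes cleave epoxycarotenoids in the committed step of its synthesis, CYP707A enzymes are cytochrome P450 hydroxylases that begin its oxidation to phaseic acid, and UGT75C1 is a glucosyltransferase that joins it to glucose in an inactive conjugate. In tomato fruit ABA is known to accumulate around the onset of ripening, with NCED1 as the main synthesis gene.

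The cultivar was Ailsa Craig throughout, without treatment, and each group had 3 libraries. At 34 days post anthesis (dpa), the breaker stage by the labels, the groups were the mutants dml2-3, rin/tdr4-1, rin-1, tdr4-1 and nor-1 and wild type (WT). At 25 dpa the groups were dml2-3, rin/tdr4-1 and WT. The mutated genes are known regulators of ripening: DML2 removes DNA methylation, NOR belongs to the NAC family of transcription factors, and RIN and TDR4 belong to the MADS-box family. By its label rin/tdr4-1 carries mutations in both MADS-box genes, and it is called the double mutant here. The sources used here do not give how the alleles were made, how many lines each mutant stands for or whether replicates came from separate plants. The p-values therefore speak for the spread between libraries alone. An age in days need not be the same ripening stage in a mutant as in WT. The mutated genes and markers of fruit tissues were not analysed here, because identifiers carry no names in the files. In libraries of bulk tissue, fewer cells of a type and less RNA per cell cannot be told apart.

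Replicate 3 of dml2-3 at 25 dpa stood apart from its group. Over all tested genes it correlated with replicates 1 and 2 at r = 0.917 and 0.916, against 0.990 between those replicates and at least 0.981 within every other group. Its NCED1 and UGT75C1 values lay far below those of replicates 1 and 2. Since all groups share 1 estimate of the spread in the test, this library raised the standard error (SE) of an NCED1 difference between 2 groups to 0.27, against 0.069 without it, and that of UGT75C1 to 0.30, against 0.070. Where dml2-3 at 25 dpa is itself 1 of the groups, the SE without it was 0.077 for NCED1 and 0.078 for UGT75C1. That group then holds 2 libraries that agree, so these SEs and their p-values do not measure the spread within it. Results for these genes are therefore given with and without this library wherever it changed the call.

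Differences are on the log2(FPKM + 1) scale and were tested with limma across all tested genes, with adjusted p under 0.05 as the threshold for a call. The scale understates changes of genes near or below 1 FPKM. FPKM values are shares of a library, and the libraries differed in make-up by group: size factors (the median ratio of a library's genes to their mean over libraries) were 0.716 to 0.833 in tdr4-1, nor-1 and WT at 34 dpa, 0.962 to 0.966 in rin-1, and 1.11 to 1.23 in the other groups. A size factor under 1 means that most genes read low in that library. In consequence the median tested gene differed between WT at 34 and at 25 dpa by -0.51, and by -0.025 after division by size factors. Each difference below is as deposited unless size factors are named. The orders of group means and the tests of neighbouring pairs in them were taken as deposited only. They set groups with unlike size factors side by side, so orders and pairs that differ can change with the scaling. The share of all tested genes called in these pairs was not counted, and the pairs were formed by sorting the same means. Counts of pairs that differed therefore do not set these genes apart.

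NCED1 was abundant in every group, and as deposited WT fruit at 34 dpa had the least of it. At 34 dpa its FPKM values were 215, 197 and 195 in dml2-3, 287, 278 and 300.4 in the double mutant, 199, 195 and 190.2 in rin-1, 100.2, 88.6 and 104 in tdr4-1, and 122, 124 and 131 in nor-1, against 58.7, 70.4 and 58.2 in WT. At 25 dpa they were 399, 392 and 112 in dml2-3 and 84.7, 80.7 and 81.5 in the double mutant, against 129.8, 112 and 116 in WT. As deposited, no mutant library at either age had as little NCED1 as any WT library at 34 dpa. Size factors were 0.764 to 0.833 in WT at 34 dpa and 1.18 to 1.19 in the double mutant at 25 dpa. Division by them puts every library of the double mutant at 25 dpa below every WT library at 34 dpa. The order of the group means from high to low was dml2-3 at 25 dpa, the double mutant at 34 dpa, dml2-3 at 34 dpa, rin-1, nor-1, WT at 25 dpa, tdr4-1, the double mutant at 25 dpa and WT at 34 dpa. None of the 8 neighbouring pairs in this order differed by the limma test, and 6 did without replicate 3 of dml2-3 at 25 dpa. The pairs that did not were dml2-3 at 34 dpa with rin-1 and nor-1 with WT at 25 dpa.

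NCED2 was far less abundant than NCED1 in every library. At 34 dpa it had 8.49, 7.49 and 7.21 FPKM in dml2-3, 17.99, 17.3 and 17.4 FPKM in the double mutant, 3.81, 3.28 and 3.20 FPKM in rin-1, 1.92, 1.60 and 2.08 FPKM in tdr4-1, and 1.43, 1.15 and 1.86 FPKM in nor-1, against 1.08, 0.92 and 0.78 FPKM in WT. At 25 dpa it had 5.76, 5.32 and 8.41 FPKM in dml2-3 and 10.8, 9.67 and 10.05 FPKM in the double mutant, against 20.4, 17.3 and 16.8 FPKM in WT. WT thus held both ends of the range, the highest mean at 25 dpa and the lowest at 34 dpa, and the highest group mean was 19.6 times the lowest. In the order of means, WT at 25 dpa was followed by the double mutant at 34 and at 25 dpa, dml2-3 at 34 and at 25 dpa, rin-1, tdr4-1, nor-1 and WT at 34 dpa. By the limma test 5 of the 8 neighbouring pairs differed. Those that did not were WT at 25 dpa with the double mutant at 34 dpa, dml2-3 at its 2 ages, and tdr4-1 with nor-1. The pairs that differed numbered 6 without replicate 3 of dml2-3 at 25 dpa, with dml2-3 at its 2 ages now among them.

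CYP707A2 had the widest range of the 6 genes, with a highest group mean 108 times the lowest. At 34 dpa its FPKM values were 90.3, 82.1 and 79.8 in dml2-3, 30.9, 30.1 and 34.3 in the double mutant, 56.1, 54.1 and 51.7 in rin-1, 354, 316 and 364 in tdr4-1, and 119.6, 123 and 127 in nor-1, against 895, 1010.0 and 963 in WT. At 25 dpa they were 48.4, 51.1 and 56.1 in dml2-3 and 9.05, 8.07 and 9.44 in the double mutant, against 119.2, 117 and 113 in WT. WT at 34 dpa stood above every library of every other group. Its mean was followed by tdr4-1, nor-1, WT at 25 dpa, dml2-3 at 34 dpa, rin-1, dml2-3 at 25 dpa and, last, the double mutant at 34 and then at 25 dpa, with 6 of the 8 neighbouring pairs different by the limma test. The exceptions were nor-1 with WT at 25 dpa and rin-1 with dml2-3 at 25 dpa.

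CYP707A3 followed another order and was highest in the single MADS-box mutants. It had 5.53, 4.64 and 5.56 FPKM in dml2-3, 35.1, 36.2 and 36.3 FPKM in the double mutant, 78.7, 80.1 and 77.0 FPKM in rin-1, 69.4, 63.1 and 71.2 FPKM in tdr4-1, and 55.1, 55.4 and 59.0 FPKM in nor-1 at 34 dpa, against 27.8, 31.0 and 30.6 FPKM in WT. At 25 dpa it had 5.57, 4.72 and 6.95 FPKM in dml2-3 and 8.89, 8.52 and 8.71 FPKM in the double mutant, against 10.4, 7.55 and 8.93 FPKM in WT. Both dml2-3 groups lay below all other groups. By the limma test 5 of the 8 neighbouring pairs differed. Those that did not were rin-1 with tdr4-1, WT with the double mutant at 25 dpa, and dml2-3 at 25 with dml2-3 at 34 dpa. Without replicate 3 of dml2-3 at 25 dpa 6 pairs differed, rin-1 with tdr4-1 among them.

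CYP707A1 was the least abundant hydroxylase transcript in every library and never passed 11.3 FPKM. At 34 dpa its FPKM values were 2.59, 2.21 and 1.96 in dml2-3, 11.05, 11.3 and 11.1 in the double mutant, 11.2, 8.25 and 7.14 in rin-1, 4.66, 3.78 and 4.17 in tdr4-1, and 5.88, 5.47 and 5.43 in nor-1, against 4.09, 4.22 and 3.37 in WT. At 25 dpa they were 2.32, 2.37 and 2.97 in dml2-3 and 2.98, 3.02 and 2.97 in the double mutant, against 2.92, 2.51 and 2.65 in WT. The 3 groups at 25 dpa and dml2-3 at 34 dpa lay close together at the low end. Of the 8 neighbouring pairs in the order of means, 4 differed by the limma test.

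UGT75C1 had the highest mean of the 6 genes over the 27 libraries, 282 FPKM. At 34 dpa it had 118, 114 and 123 FPKM in dml2-3, 183, 189.5 and 202 FPKM in the double mutant, 460.5, 384 and 365 FPKM in rin-1, 494, 454 and 505 FPKM in tdr4-1, and 527, 527 and 558 FPKM in nor-1, against 264, 295 and 277 FPKM in WT. At 25 dpa it had 398, 407 and 102 FPKM in dml2-3 and 104, 94.5 and 99.2 FPKM in the double mutant, against 129, 116 and 117 FPKM in WT. All libraries of rin-1, tdr4-1 and nor-1 lay above all WT libraries of the same age, and all libraries of dml2-3 and of the double mutant lay below them. None of the 8 neighbouring pairs in the order of means differed by the limma test, and 5 did without replicate 3 of dml2-3 at 25 dpa.

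**Figure D1:**
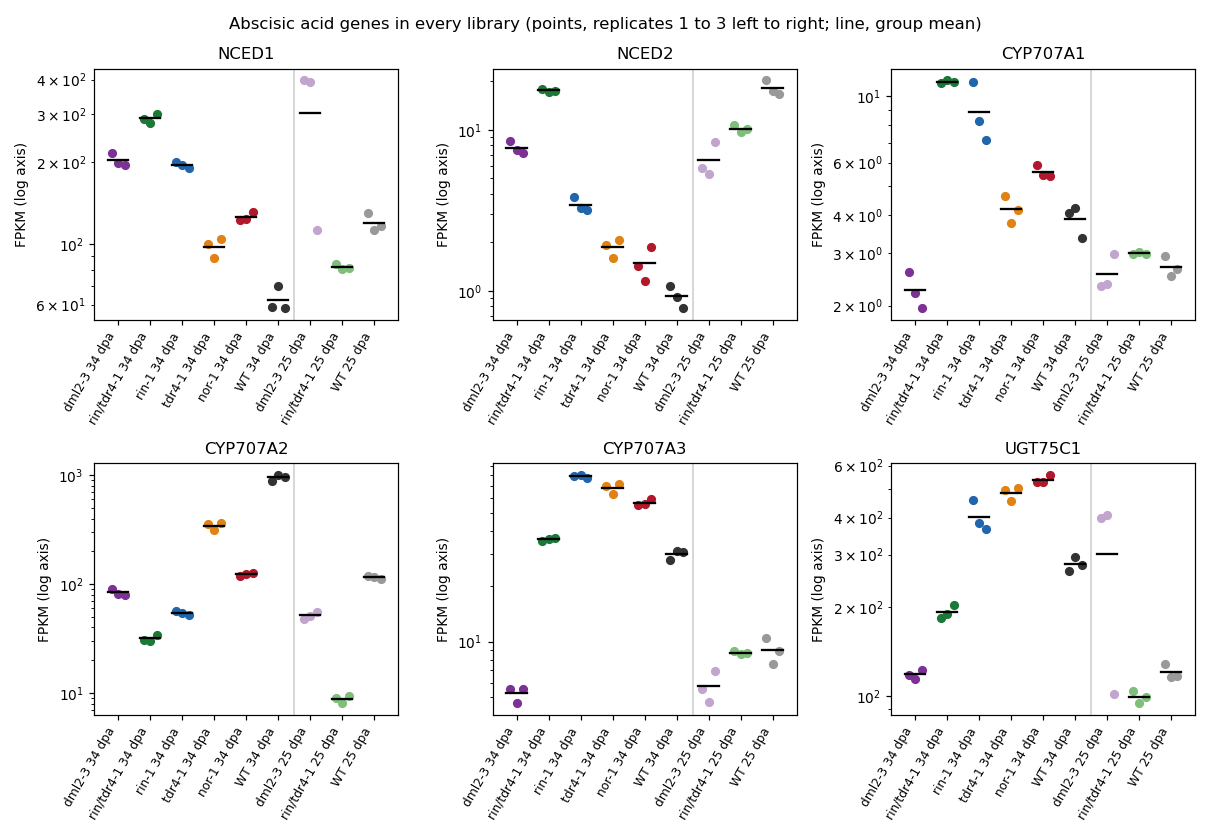
FPKM of each gene in each library on a log axis, with 1 point per library, replicates 1 to 3 from left to right in each group, and a line at the group mean (n = 3). The grey line parts the groups at 34 dpa (left) from those at 25 dpa (right). CYP707A2 peaks in WT at 34 dpa, where NCED1 and NCED2 are lowest as deposited. Replicate 3 of dml2-3 at 25 dpa lies far below replicates 1 and 2 for NCED1 and UGT75C1.

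Normal development was addressed by WT fruit at 34 dpa against WT fruit at 25 dpa. In WT the 3 hydroxylase genes and UGT75C1 were higher at 34 dpa and both synthesis genes were lower. CYP707A2 averaged 956 ± 58.0 FPKM at 34 dpa and 116 ± 3.33 FPKM at 25 dpa (mean ± SD, n = 3 each), which on the log2 scale is higher by 3.03 (SE 0.07, limma adjusted p = 1.88e-19). NCED2 averaged 0.927 ± 0.150 FPKM at 34 dpa and 18.2 ± 1.95 FPKM at 25 dpa, a difference of -3.31 (SE 0.13, adjusted p = 7.04e-16). The groups did not overlap for any of the 6 genes. The share of all tested genes without overlap was not counted in this or any later comparison, so it does not set these genes apart.

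CYP707A3 was higher in WT at 34 dpa by 1.64 (SE 0.10, limma adjusted p = 1.91e-12), UGT75C1 by 1.20 (SE 0.30, adjusted p = 0.00101) and CYP707A1 by 0.40 (SE 0.11, adjusted p = 0.00317). The CYP707A1 difference was 0.86 with size factors and 1.46 with quantile scaling. NCED1 differed by -0.93 (SE 0.27, adjusted p = 0.00421). Size factors ended this call (-0.35, adjusted p = 0.227), as did quantile scaling (-0.61, adjusted p = 0.0759), within a range of adjusted p over the alternatives of 5.48e-11 to 0.227.

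As deposited, 4 of the 6 genes were called higher, where 15.3% of all tested genes were, and 2 were called lower, where 61.7% were. All 6 were thus called beside a background of 77.0%, so that a call by itself says little about these genes in this comparison. Relative to the median tested gene, CYP707A2 was higher by 3.54, CYP707A3 by 2.15, UGT75C1 by 1.72 and CYP707A1 by 0.92, while NCED1 stood at -0.42 and NCED2 at -2.80. The median of the 6 differences was 0.80 as deposited and 1.32 with size factors, beside -0.51 and -0.025 for all tested genes. With size factors 4 genes were called higher, beside 36.3% of all genes, and 1 lower, beside 38.4%.

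The mutants were each set against WT at 34 dpa to ask what each mutation changed at the age of breaker fruit. The comparisons share the 3 WT libraries. In dml2-3, both synthesis genes were called higher and all 4 breakdown genes lower. In the double mutant, NCED1, NCED2, CYP707A1 and CYP707A3 were called higher and CYP707A2 lower, but CYP707A3 turned lower with size factors. In nor-1, CYP707A2 was called lower and the other 5 genes higher, of which NCED2 turned with quantile scaling. CYP707A2 was called lower in all 5 mutants, and NCED2 was called higher in all 5, with that exception for its direction in nor-1.

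In dml2-3, 2 genes were called higher and 4 lower, beside 57.0% and 18.0% of all tested genes. In the double mutant, 4 were called higher and 1 lower, beside 61.3% and 15.2%. In rin-1, 4 were called higher and 1 lower, beside 46.2% and 20.9%. In tdr4-1, 3 were called higher and 1 lower, beside 13.5% and 22.7%. In nor-1, 5 were called higher and 1 lower, beside 33.2% and 28.1%. Calls of either direction covered 75.0% of all genes in dml2-3, 76.5% in the double mutant, 67.1% in rin-1, 36.2% in tdr4-1 and 61.3% in nor-1, so that a count of calls over 6 genes says little by itself. The median difference of the 6 genes was -0.91 in dml2-3, 0.79 in the double mutant, 1.10 in rin-1, 0.61 in tdr4-1 and 0.67 in nor-1. For all tested genes it was 0.42 in dml2-3, 0.51 in the double mutant, 0.23 in rin-1, -0.06 in tdr4-1 and 0.04 in nor-1.

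Size factors evened out these backgrounds. With them 38.0% of all genes were called higher and 35.0% lower in dml2-3, 36.6% and 34.5% in the double mutant, 34.9% and 33.5% in rin-1, and 19.6% and 16.5% in tdr4-1. Of the 6 genes 3 were then called higher and 3 lower in the double mutant, where CYP707A3 and UGT75C1 joined CYP707A2 on the lower side, and 4 were called higher and 1 lower in tdr4-1, where NCED1 was added. The counts in dml2-3 and in rin-1 were as before, and so were those in nor-1, beside 32.8% of all genes higher and 31.6% lower. The median of the 6 genes was -1.36 in dml2-3, 0.25 in the double mutant, 0.91 in rin-1, 0.72 in tdr4-1 and 0.64 in nor-1. That of all genes was at most 0.03 in these comparisons.

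CYP707A2, the hydroxylase gene that dominated in WT, stood lowest against WT in the double mutant, at -4.87 (SE 0.07, limma adjusted p = 1.29e-22). The difference was -4.12 in rin-1 (adjusted p = 1.46e-21), -3.49 in dml2-3 (adjusted p = 1.54e-20), -2.94 in nor-1 (adjusted p = 6.20e-19) and -1.47 in tdr4-1 (adjusted p = 1.09e-12), with the same SE. No mutant library overlapped WT. Among all tested genes these differences stood at percentile 1.03 or lower in each of the 5 mutants, and all 5 calls held under every alternative run.

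The synthesis genes went the other way. NCED1 was higher than in WT by 2.19 in the double mutant (SE 0.27, limma adjusted p = 2.69e-07), by 1.69 in dml2-3 (adjusted p = 1.02e-05), by 1.63 in rin-1 (adjusted p = 2.02e-05) and by 1.00 in nor-1 (adjusted p = 0.00329). In tdr4-1 the difference was 0.64 (adjusted p = 0.0752), with all 3 tdr4-1 libraries above all WT libraries. It was called without any 1 of the dml2-3 libraries at 25 dpa, which enter only the shared spread: adjusted p was 0.0454 without replicate 1, 0.0479 without replicate 2 and 1.44e-07 without replicate 3. It was also called with size factors (0.74, adjusted p = 0.0282) and in a fit to tdr4-1 and WT alone (adjusted p = 0.00641). Over its alternatives the adjusted p ran from 1.44e-07 to 0.171. Without replicate 3 of dml2-3 at 25 dpa 45.5% of all tested genes were called in tdr4-1 against WT.

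NCED2 was higher than in WT by 3.27 in the double mutant (SE 0.13, limma adjusted p = 1.14e-15), by 2.18 in dml2-3 (adjusted p = 8.36e-13), by 1.20 in rin-1 (adjusted p = 2.41e-08), by 0.57 in tdr4-1 (adjusted p = 0.00106) and by 0.36 in nor-1 (adjusted p = 0.0178). Its WT level at 34 dpa was near 1 FPKM, and with a pseudocount of 0.1 in place of 1 the tdr4-1 difference was 0.94 and the nor-1 difference 0.61. With quantile scaling the differences were 1.35 in dml2-3 and 0.57 in rin-1. The nor-1 call was the least stable. It ended without replicate 3 of nor-1 (0.25, adjusted p = 0.118), without replicate 3 of WT (0.30, adjusted p = 0.0731) and in a fit to nor-1 and WT alone (adjusted p = 0.0537), and its direction turned with quantile scaling (-0.013, adjusted p = 0.943), with adjusted p from 0.00271 to 0.943 over the alternatives.

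CYP707A3 split the mutants. Relative to WT it was lower in dml2-3 at a difference of -2.30 (SE 0.10, limma adjusted p = 5.01e-15) and higher in rin-1 by 1.37 (adjusted p = 5.59e-11), in tdr4-1 by 1.16 (adjusted p = 8.69e-09) and in nor-1 by 0.90 (adjusted p = 6.69e-08). The difference of 0.26 in the double mutant (adjusted p = 0.0209) turned to -0.32 with size factors (adjusted p = 0.00604) and to -0.10 with quantile scaling (adjusted p = 0.384). It also lost its call when replicate 1 of WT (0.21, adjusted p = 0.0890) was left out, and when replicate 3 of the double mutant (0.25, adjusted p = 0.0507) was, with adjusted p from 0.00573 to 0.384 over the alternatives. No direction can thus be given for CYP707A3 in the double mutant.

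CYP707A1 was higher than in WT in the double mutant by 1.32 (SE 0.11, limma adjusted p = 9.67e-10), in rin-1 by 0.99 (adjusted p = 1.10e-07) and in nor-1 by 0.43 (adjusted p = 0.00243), and lower in dml2-3 at a difference of -0.59 (adjusted p = 8.79e-05). In tdr4-1 the difference was 0.09, with a 95% interval of -0.15 to 0.33 (adjusted p = 0.602). The sizes depended on the scaling: with size factors they were 0.81 in the double mutant and -0.98 in dml2-3, and with quantile scaling 0.45 in the double mutant, 0.43 in rin-1 and -1.29 in dml2-3. With quantile scaling the nor-1 call ended (0.16, adjusted p = 0.188, range 0.000374 to 0.188 over the alternatives).

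UGT75C1, the glucosyltransferase gene, was lower than in WT in dml2-3 at -1.23 (SE 0.30, limma adjusted p = 0.000876) and higher in nor-1 by 0.95 (adjusted p = 0.00909). The nor-1 call ended with quantile scaling (0.74, adjusted p = 0.0574, range 1.08e-10 to 0.0574). In tdr4-1 it was higher by 0.80 (adjusted p = 0.0420), but without 1 library of tdr4-1 or WT the adjusted p was 0.0681 to 0.0998 whichever of the 6 was left out, at differences of 0.76 to 0.84. That call also ended with all genes above 0 tested (adjusted p = 0.0598) and after quantile scaling (adjusted p = 0.0801), and over all alternatives its adjusted p ran from 7.43e-09 to 0.0998.

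For UGT75C1 the differences of -0.54 in the double mutant (limma adjusted p = 0.107) and 0.53 in rin-1 (adjusted p = 0.126) were not called. Neither group overlapped WT, without a count of such genes among all tested. Without replicate 3 of dml2-3 at 25 dpa both differences were called, at adjusted p = 4.57e-07 (range 4.57e-07 to 0.196) and 7.91e-07 (range 7.91e-07 to 0.481). The background was then 80.7% of all genes in the double mutant and 72.3% in rin-1. Both differences were also called in fits to the 2 groups alone (adjusted p = 0.000392 and 0.00457). With size factors the double mutant stood at -1.13 (adjusted p = 0.00130).

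**Figure D2:**
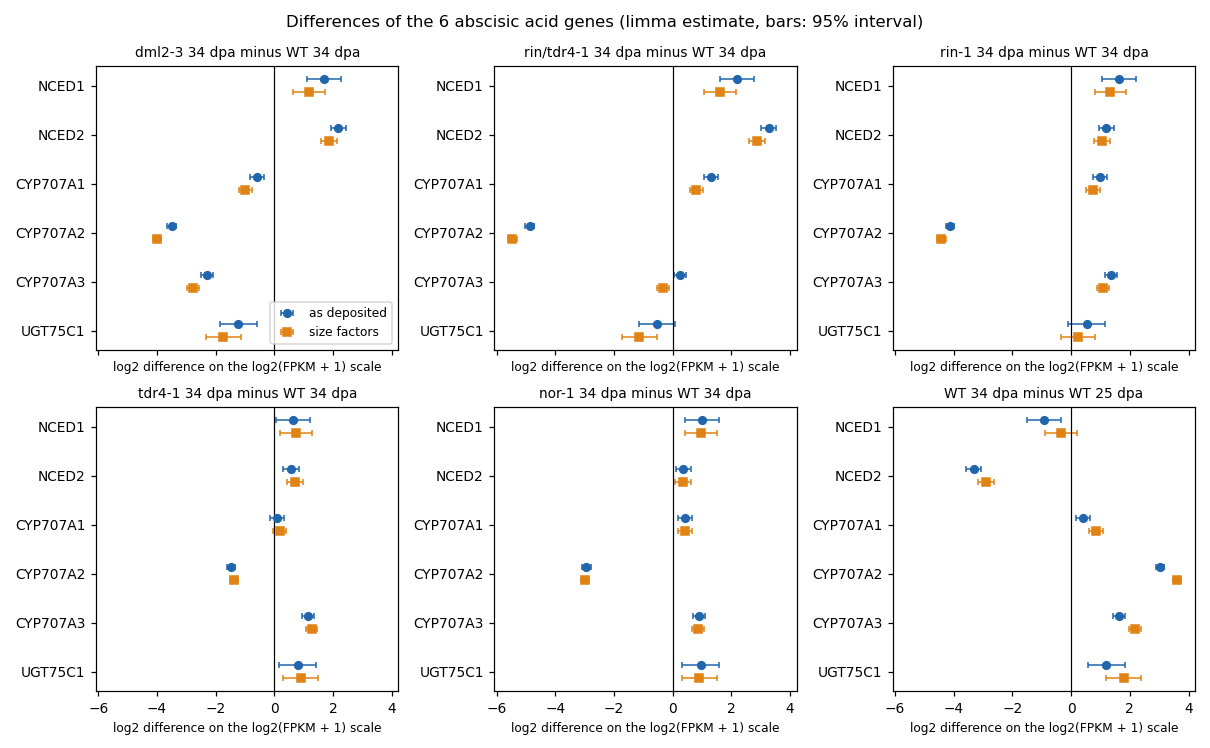
Log2 differences of the 6 genes in 6 comparisons, with WT at 34 dpa against WT at 25 dpa in the last panel, as limma estimates with 95% intervals on the log2(FPKM + 1) scale. Circles are FPKM as deposited and squares are after division by size factors. CYP707A2 lies left of 0 in all 5 mutants, at -4.87 in the double mutant and -1.47 in tdr4-1, and CYP707A3 in the double mutant changes side with the scaling.

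At 25 dpa, dml2-3 and the double mutant were set against WT of the same age. In dml2-3, CYP707A2 was lower at a difference of -1.15 (SE 0.07, limma adjusted p = 1.74e-11), NCED2 at -1.37 (SE 0.13, adjusted p = 8.66e-09) and CYP707A3 at -0.57 (SE 0.10, adjusted p = 5.61e-05). NCED1 was higher by 1.12 (SE 0.27, adjusted p = 0.00170) and UGT75C1 by 1.08 (SE 0.30, adjusted p = 0.00448). CYP707A1 differed by -0.06 (interval -0.30 to 0.18, adjusted p = 0.687). NCED2 therefore lay below WT in dml2-3 at 25 dpa and above it at 34 dpa.

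Of the 6 genes 2 were called higher and 3 lower in dml2-3 at 25 dpa, beside 26.7% and 27.8% of all tested genes. Their median difference was -0.31, beside -0.00032 for all genes. The NCED1 and UGT75C1 values rested on unlike replicates. NCED1 had 399 and 392 FPKM in replicates 1 and 2 of dml2-3 and 112 FPKM in replicate 3, just below the lowest WT library at 112.5 FPKM. Replicates 1 and 2 had 398 and 407 FPKM of UGT75C1, while replicate 3 had 102 FPKM, below all WT libraries.

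Replicates 1 and 2 of dml2-3 at 25 dpa averaged 3.52 times replicate 3 for NCED1 and 3.96 times for UGT75C1. For the other 4 genes the ratio was 0.659 for NCED2, 0.740 for CYP707A3, 0.790 for CYP707A1 and 0.887 for CYP707A2. With replicate 3 left out (n = 2 in dml2-3), NCED1 was higher than in WT by 1.72 (SE 0.077, limma adjusted p = 4.16e-14) and UGT75C1 by 1.73 (SE 0.078, adjusted p = 4.93e-14). These SEs and p-values do not measure the spread within dml2-3 at 25 dpa, because replicate 3 stood apart in these 2 genes. In a fit to the 2 groups alone, with all 3 replicates, the calls of NCED1 (adjusted p = 0.158), UGT75C1 (adjusted p = 0.202) and CYP707A3 (adjusted p = 0.0617) ended. Over the alternatives the adjusted p ran from 4.16e-14 to 0.158 for NCED1, from 4.93e-14 to 0.202 for UGT75C1 and from 1.19e-06 to 0.0617 for CYP707A3. Over all tested genes replicate 3 correlated with the mean of WT at 25 dpa at r = 0.914, against 0.892 and 0.893 for replicates 1 and 2, and with the mean of dml2-3 at 34 dpa at 0.945, against 0.953 and 0.952. With the mean of replicates 1 and 2 of its own group it correlated at 0.919, lower than with dml2-3 at 34 dpa. The part of sampling, labelling or RNA quality in this split was not tested.

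**Figure D3:**
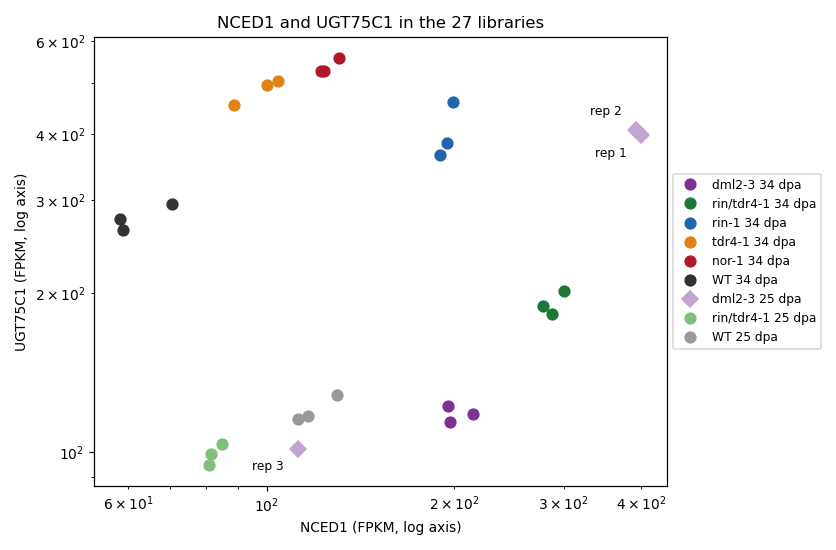
UGT75C1 against NCED1 in the 27 libraries, in FPKM on log axes, with 1 point per library and colours for the groups. Diamonds are the 3 libraries of dml2-3 at 25 dpa: replicates 1 and 2 lie between 392 and 407 FPKM on both axes and replicate 3 at 112 FPKM of NCED1 and 102 FPKM of UGT75C1, beside the libraries of WT and of the double mutant at 25 dpa.

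In the double mutant at 25 dpa, CYP707A2 was already lower than in WT, at 8.85 ± 0.706 FPKM against 116 ± 3.33 FPKM (difference -3.58, SE 0.07, limma adjusted p = 6.03e-20). NCED2 was lower at a difference of -0.78 (SE 0.13, adjusted p = 5.25e-05). CYP707A3 differed by -0.03 (interval -0.23 to 0.18, adjusted p = 0.860) and CYP707A1 by 0.11 (interval -0.13 to 0.35, adjusted p = 0.494). With 0 genes called higher and 2 lower, the background was 17.4% and 15.3%. The median difference of the 6 genes was -0.40, beside 0.02 for all genes.

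NCED1 and UGT75C1 differed between the double mutant and WT at 25 dpa by -0.53 (limma adjusted p = 0.150) and -0.28 (adjusted p = 0.523), and all 3 libraries of the double mutant lay below all WT libraries for both. Without replicate 3 of dml2-3 at 25 dpa both were called lower, at adjusted p = 2.05e-06 (range 2.05e-06 to 0.345) and 0.00295 (range 0.00295 to 0.822), so that 4 genes were called lower, beside 19.8% of all genes. A fit to these 2 groups alone also called 4 of the 6, but the share of all genes called in that fit is not given here.

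How the genes differed between ages within a mutant was asked next. The double mutant had more of all 6 transcripts at 34 than at 25 dpa, beside 28.6% of all tested genes called higher. The differences were 1.93 for CYP707A3 (SE 0.10, limma adjusted p = 1.23e-12), 1.80 for NCED1 (SE 0.27, adjusted p = 1.08e-05), 1.73 for CYP707A2 (SE 0.07, adjusted p = 3.03e-14), 1.61 for CYP707A1 (SE 0.11, adjusted p = 2.11e-10), 0.94 for UGT75C1 (SE 0.30, adjusted p = 0.0103) and 0.73 for NCED2 (SE 0.13, adjusted p = 4.11e-05). Their median was 1.67, beside -0.0058 for all genes. The libraries at 34 and 25 dpa did not overlap for any of the 6 genes, without a count of such genes among all tested. All 6 calls held under every alternative run.

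In dml2-3, only CYP707A2 was called higher at 34 than at 25 dpa, by 0.69 (SE 0.07, limma adjusted p = 1.99e-07), beside 12.0% of all genes, and only UGT75C1 lower, at -1.10 (SE 0.30, adjusted p = 0.00701), beside 21.8%. The UGT75C1 value was -1.76 without replicate 3 at 25 dpa (adjusted p = 2.32e-13), -0.78 without replicate 1 (adjusted p = 0.0565) and -0.76 without replicate 2 (adjusted p = 0.0578), and fitting the 2 groups alone ended the call (adjusted p = 0.272), with adjusted p from 2.32e-13 to 0.272 over the alternatives. NCED1 differed by -0.36 (adjusted p = 0.336), by -0.96 without replicate 3 (adjusted p = 1.74e-09), by -0.053 without replicate 1 (adjusted p = 0.910) and by -0.066 without replicate 2 (adjusted p = 0.892), with a range of 1.74e-09 to 0.910, so its size rested on which of these libraries was kept. NCED2 differed by 0.24 (adjusted p = 0.152). It was called at 0.41 without replicate 3 (adjusted p = 0.00424), with TPM, that is values rescaled to equal totals (adjusted p = 0.0220), and under quantile scaling (adjusted p = 0.0192), with a range of 0.00424 to 0.508. CYP707A1 differed by -0.13 (interval -0.37 to 0.11) and CYP707A3 by -0.10 (interval -0.31 to 0.10), both not called. CYP707A1 turned to 0.0067 with TPM and 0.12 with quantile scaling, and CYP707A3 to 0.059 with TPM, 0.091 with quantile scaling and 0.023 without replicate 3. The median difference of the 6 genes was -0.11, beside -0.08 for all genes. With size factors 1 gene was again called each way, beside 16.5% of all genes higher and 16.6% lower.

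The difference between ages in a mutant was then tested against that in WT. For NCED2 it was higher in the double mutant, at 4.05 (SE 0.18, limma adjusted p = 2.50e-14), and in dml2-3, at 3.55 (adjusted p = 1.73e-13). For CYP707A2 it was lower in dml2-3 at -2.34 (SE 0.10, adjusted p = 1.34e-14) and at -1.29 in the double mutant (adjusted p = 2.65e-10). The 2 mutants thus departed from WT in the same direction for these genes.

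For the other genes the departures are given for each mutant in turn; no test set 1 mutant's departure against the other's. In the double mutant the difference between ages exceeded that in WT for NCED1 by 2.73 (SE 0.39, limma adjusted p = 2.40e-06) and for CYP707A1 by 1.20 (SE 0.16, adjusted p = 1.10e-06). The CYP707A1 value was 0.70 with size factors and lost its call with quantile scaling (0.28, adjusted p = 0.0930, range 7.55e-08 to 0.0930). In dml2-3 it was lower than in WT for UGT75C1 at -2.30 (SE 0.42, adjusted p = 5.55e-05), for CYP707A3 at -1.74 (SE 0.14, adjusted p = 4.07e-10) and for CYP707A1 at -0.53 (SE 0.16, adjusted p = 0.00636). The last value was -0.93 with size factors, -1.34 with quantile scaling and -0.35 with TPM, where its call ended (adjusted p = 0.0747, range 4.77e-08 to 0.0747).

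NCED1 in dml2-3 departed from the WT change by 0.57 (limma adjusted p = 0.199), by -0.033 without replicate 3 at 25 dpa (adjusted p = 0.784), and by 0.88 and 0.86 without replicates 1 and 2 (adjusted p = 0.0401 and 0.0449), with adjusted p from 0.0401 to 0.893 over the alternatives. In the double mutant UGT75C1 departed by -0.26 (adjusted p = 0.595), which was called without replicate 3 of dml2-3 at 25 dpa (adjusted p = 0.0221) and when only the 4 groups were fitted (adjusted p = 0.0212), with a range of 0.0212 to 0.684. CYP707A3 departed there by 0.29 (adjusted p = 0.0695), which turned to -0.29 with size factors and -0.11 with quantile scaling. That value was called without replicate 2 of WT at 25 dpa (0.40, adjusted p = 0.0129) and, at 0.29, without replicate 2 or 3 of dml2-3 at 25 dpa (adjusted p = 0.0417 and 0.0287), over a range of 0.0129 to 0.541. For the double mutant 3 genes were called higher and 1 lower, beside 55.9% and 14.5% of all genes (70.4% in all). For dml2-3 1 was called higher and 4 lower, beside 52.1% and 17.0% (69.1% in all). With size factors these counts of the 6 genes were the same, beside 34.1% higher and 31.3% lower for the double mutant and 35.1% and 32.8% for dml2-3.

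Both single MADS-box mutants were next compared with the double mutant at 34 dpa. The double mutant had more NCED2 than either, by 2.07 against rin-1 (SE 0.13, limma adjusted p = 4.32e-12) and 2.70 against tdr4-1 (adjusted p = 2.82e-14). It had less CYP707A2 than either, at -0.75 against rin-1 (adjusted p = 5.64e-09) and -3.40 against tdr4-1 (adjusted p = 5.09e-20). Less CYP707A3 was found at -1.11 against rin-1 (adjusted p = 2.21e-09) and -0.90 against tdr4-1 (adjusted p = 3.43e-08), and less UGT75C1 at -1.06 against rin-1 (adjusted p = 0.00336) and -1.33 against tdr4-1 (adjusted p = 0.000360). The double mutant overlapped neither single mutant for these 4 genes, without a count of such genes among all tested. Against tdr4-1, NCED1 was higher by 1.56 (adjusted p = 2.56e-05) and CYP707A1 by 1.23 (adjusted p = 2.70e-09).

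Several of these sizes moved with size factors against tdr4-1: NCED1 to 0.86, CYP707A1 to 0.63, CYP707A3 to -1.59 and UGT75C1 to -2.03. CYP707A1 against tdr4-1 was 0.40 with quantile scaling. Against rin-1 it differed by 0.32 (limma adjusted p = 0.0160), a value that size factors brought to 0.05 (adjusted p = 0.724) and quantile scaling to 0.02 (adjusted p = 0.886). The rin-1 replicates spread from 7.14 to 11.2 FPKM: the difference was 0.20 without replicate 3 (adjusted p = 0.139), 0.29 without replicate 2 (adjusted p = 0.0578) and 0.49 without replicate 1 (adjusted p = 0.000331), and the fit to these 2 groups alone gave adjusted p = 0.0869, within a range of 0.000331 to 0.886.

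NCED1 differed between the double mutant and rin-1 by 0.56 (limma adjusted p = 0.0732), with all 3 libraries of the double mutant higher. This was called without replicate 1, 2 or 3 of dml2-3 at 25 dpa (adjusted p = 0.0456, 0.0480 and 2.26e-07), in the fit to these 2 groups alone (adjusted p = 2.09e-05), under TPM (0.77, adjusted p = 0.0124) and under quantile scaling (0.74, adjusted p = 0.0374), and not with size factors (0.26, adjusted p = 0.385, the top of its range from 2.26e-07). Without replicate 3 of dml2-3 at 25 dpa 74.8% of all genes were called in this comparison. Against rin-1, 2 genes were called higher and 3 lower, beside 48.9% and 20.7% of all genes. Against tdr4-1, 3 were called each way, beside 64.5% and 14.9%. The median of the 6 genes was -0.21 against rin-1, beside 0.26 for all genes, and 0.16 against tdr4-1, beside 0.57. With size factors these medians were -0.50 against rin-1, beside 0.01, and -0.48 against tdr4-1, beside 0.02, so that the sign of the median against tdr4-1 turned. Called with size factors were 1 gene higher and 3 lower against rin-1, beside 33.1% and 32.1% of all genes, and 3 each way against tdr4-1, beside 36.0% for either direction.

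Whether the single mutants' differences from WT added up to that of the double mutant was tested as the value in the double mutant, less those in rin-1 and tdr4-1, plus that in WT. CYP707A3 fell short of the sum by the most, at -2.27 (SE 0.14, limma adjusted p = 7.18e-12): it averaged 35.9 ± 0.635 FPKM in the double mutant, 78.6 ± 1.55 FPKM in rin-1 and 67.9 ± 4.26 FPKM in tdr4-1, against 29.8 ± 1.76 FPKM in WT. UGT75C1 departed by -1.86 (SE 0.42, adjusted p = 0.000565), and its FPKM values lay above WT in every library of both single mutants and below WT in every library of the double mutant. NCED2 departed by 1.497 (SE 0.18, adjusted p = 2.08e-07) and CYP707A2 by 0.72 (SE 0.10, adjusted p = 1.88e-06). The CYP707A2 departure was 0.33 with size factors and 0.30 with quantile scaling.

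The departure of NCED1 from the sum was -0.08 (interval -0.88 to 0.73, limma adjusted p = 0.875), or -0.28 to 0.13 as the interval without replicate 3 of dml2-3 at 25 dpa. It turned to 0.16 with TPM and 0.05 with quantile scaling. That of CYP707A1 was 0.23 (interval -0.10 to 0.57, adjusted p = 0.206). It turned to -0.13 with size factors and -0.02 with quantile scaling, and was called without replicate 1 of rin-1 (0.40, adjusted p = 0.0161) and with TPM (0.44, adjusted p = 0.0276), within a range of 0.0161 to 0.897. With 2 genes called higher and 2 lower than the sum, the background was 47.8% and 19.9% (67.7% in all). With size factors the counts of the 6 genes were the same, beside 31.6% and 31.0%, and their median turned to -0.31, against 0.08 as deposited.

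When dml2-3 was compared directly with the double mutant at 34 dpa, the test gave less CYP707A3 in dml2-3 at -2.57 (SE 0.10, limma adjusted p = 3.30e-15), less CYP707A1 at -1.91 (SE 0.11, adjusted p = 6.39e-12) and less NCED2 at -1.09 (SE 0.13, adjusted p = 1.79e-07), and more CYP707A2 at 1.38 (SE 0.07, adjusted p = 4.71e-13). No library of dml2-3 overlapped the double mutant for these genes, without a count of such genes among all tested. NCED1 (-0.51, adjusted p = 0.115) and UGT75C1 (-0.69, adjusted p = 0.0515) were lower in every dml2-3 library but not called. Without replicate 3 of dml2-3 at 25 dpa they were, at adjusted p = 1.35e-06 (range 1.35e-06 to 0.223) and 2.16e-08 (range 2.16e-08 to 0.114), beside 67.5% of all genes. UGT75C1 was also called without replicate 1 or 2 of that group (adjusted p = 0.0320 and 0.0295), and both genes were when only the 2 groups were fitted (adjusted p = 0.000201 for NCED1 and 4.67e-05 for UGT75C1). The background was 25.1% higher, with 1 of the 6 genes, and 35.7% lower, with 3.

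The hydroxylase transcripts were also described by their sum and by the share of each in it. The sums depend on the scaling between libraries, and the shares, taken within a library, do not. As deposited, the 3 CYP707A genes summed to 91.5 ± 6.01 FPKM in dml2-3, 78.8 ± 2.54 FPKM in the double mutant, 141 ± 5.15 FPKM in rin-1, 417 ± 30.1 FPKM in tdr4-1 and 185 ± 5.38 FPKM in nor-1 at 34 dpa, against 989.5 ± 59.7 FPKM in WT. At 25 dpa they summed to 60.2 ± 5.15 FPKM in dml2-3 and 20.6 ± 0.820 FPKM in the double mutant, against 128 ± 4.22 FPKM in WT. CYP707A2 held most of this sum in WT, dml2-3, tdr4-1 and nor-1, and less than CYP707A3 in rin-1 and in the double mutant at 34 dpa.

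CYP707A2 made up 91.8% ± 0.460 of the sum in dml2-3, 40.3% ± 1.61 in the double mutant, 38.2% ± 0.244 in rin-1, 82.7% ± 0.167 in tdr4-1 and 66.5% ± 0.356 in nor-1 at 34 dpa, against 96.6% ± 0.0333 in WT. At 25 dpa its share was 86.3% ± 1.45 in dml2-3 and 43.0% ± 1.78 in the double mutant, against 90.9% ± 1.09 in WT. The low share of the double mutant was thus present at both ages. CYP707A3 held 55.6% ± 1.48 in rin-1, 45.6% ± 1.11 in the double mutant at 34 dpa and 42.4% ± 1.11 in the double mutant at 25 dpa, against 3.01% ± 0.0505 in WT at 34 dpa and 6.996% ± 0.978 in WT at 25 dpa. CYP707A1 reached its largest shares in the double mutant, with 14.2% ± 0.509 at 34 dpa and 14.6% ± 0.726 at 25 dpa.

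**Figure D4:**
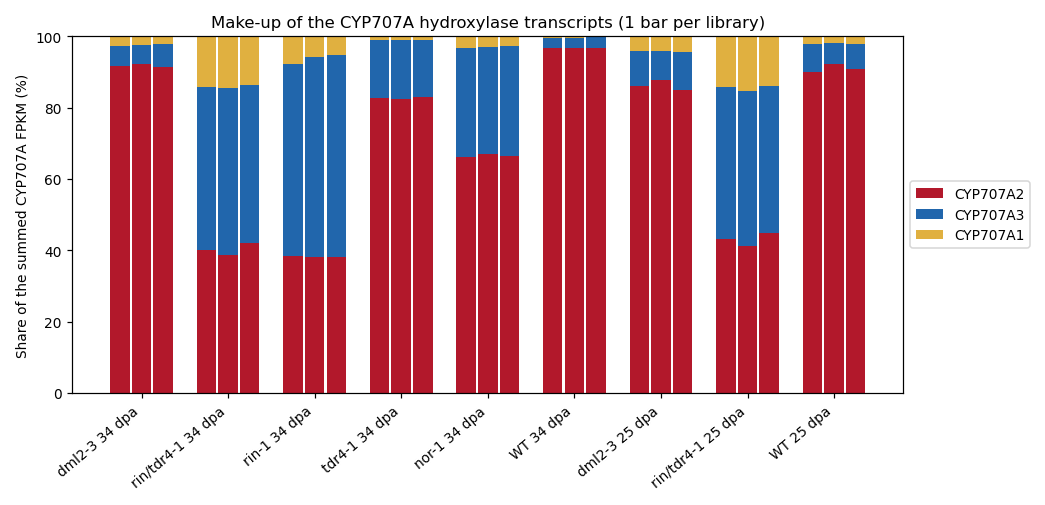
Share of CYP707A2, CYP707A3 and CYP707A1 in their summed FPKM (%), with 1 stacked bar per library and 3 bars per group. The double mutant at both ages and rin-1 have 38.2% to 43.0% of CYP707A2 on average, all other groups 66.5% or more.

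Synthesis and hydroxylase transcripts were also set against each other within a library. The sum of NCED1 and NCED2 over the CYP707A sum was 2.30 ± 0.0282 in dml2-3, 3.88 ± 0.0793 in the double mutant, 1.40 ± 0.0191 in rin-1, 0.239 ± 0.00309 in tdr4-1 and 0.685 ± 0.00711 in nor-1 at 34 dpa, against 0.0640 ± 0.00456 in WT. At 25 dpa it was 7.19, 6.83 and 1.83 in the 3 dml2-3 libraries and 4.50 ± 0.148 in the double mutant, against 1.08 ± 0.0562 in WT. Every mutant library was above every WT library of its age. These are ratios of transcripts per length and not of enzyme or hormone amounts.

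UGT75C1 over the CYP707A sum was 1.296 ± 0.103 in dml2-3, 2.43 ± 0.0550 in the double mutant, 2.85 ± 0.266 in rin-1, 1.16 ± 0.0209 in tdr4-1 and 2.90 ± 0.0327 in nor-1 at 34 dpa, against 0.282 ± 0.00366 in WT. This ratio at 25 dpa was 7.07, 6.99 and 1.54 in the 3 dml2-3 libraries. The double mutant had 4.82 ± 0.127 at that age, against 0.940 ± 0.0301 in WT. NCED1 over UGT75C1 was 1.71 ± 0.113 in dml2-3, 1.51 ± 0.0574 in the double mutant, 0.487 ± 0.0471 in rin-1, 0.201 ± 0.00592 in tdr4-1 and 0.233 ± 0.00173 in nor-1 at 34 dpa, against 0.224 ± 0.0140 in WT. At 25 dpa it was 1.02 ± 0.0732 in dml2-3, including replicate 3 at 1.11, and 0.831 ± 0.0202 in the double mutant, against 0.993 ± 0.0187 in WT. The split among the dml2-3 replicates thus left this ratio nearly level, since NCED1 and UGT75C1 shifted together.

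**Figure D5:**
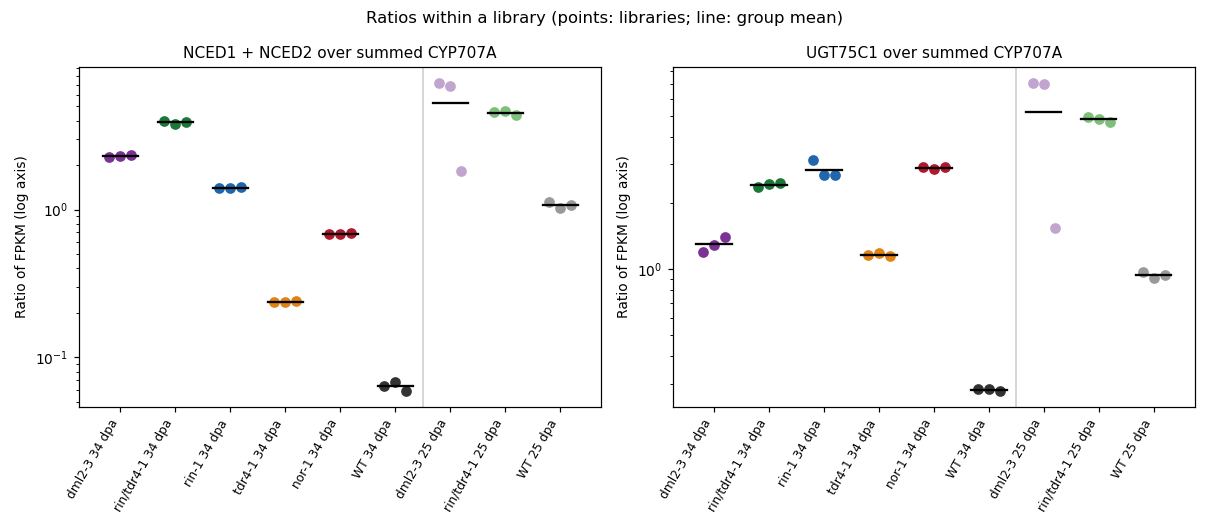
Ratios of FPKM within a library on log axes: NCED1 plus NCED2 over the summed CYP707A genes (left) and UGT75C1 over the same sum (right), with 1 point per library and a line at the group mean (n = 3). The grey line parts the ages. WT at 34 dpa is lowest in both panels, at 0.0640 and 0.282.

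Across the 9 group means of log2(FPKM + 1), CYP707A3 ran most closely with UGT75C1 (Pearson r = 0.81) and CYP707A1 (r = 0.78), and NCED2 ran opposite to UGT75C1 (r = -0.78) and to CYP707A2 (r = -0.68). NCED1 and NCED2 had r = 0.48, and CYP707A2 and CYP707A1 r = -0.11. These are descriptions over 9 points that share genotypes and libraries, so no p-value is given.

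Over the 27 libraries, the genes most like NCED1 among 13499 candidates were Solyc08g078650.3 (r = 0.96) and Solyc05g051900.3 (r = 0.94). Like NCED1 as deposited, both had their lowest group mean in WT at 34 dpa, at 2.88 FPKM for Solyc08g078650.3 and 5.65 FPKM for Solyc05g051900.3. Their highest group means were 41.9 FPKM in dml2-3 at 25 dpa for Solyc08g078650.3 and 24.3 FPKM in the double mutant at 34 dpa for Solyc05g051900.3. Most like UGT75C1 were Solyc04g071600.3 (r = 0.94) and Solyc08g080940.3 (r = 0.93). Solyc04g071600.3 was highest in nor-1, at 42.0 FPKM, and lowest in the double mutant at 25 dpa, at 0.173 FPKM, as UGT75C1 was. Solyc08g080940.3 was highest in tdr4-1, at 559 FPKM, and likewise lowest in the double mutant at 25 dpa, at 124 FPKM. Without replicate 3 of dml2-3 at 25 dpa the 4 correlations were 0.96, 0.97, 0.94 and 0.93. The files do not pair these 4 identifiers with names.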

How the data were processed

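RNA sequencing of fruits was read from 1 table of FPKM values that the authors deposited, with 1 column for each of the 27 libraries. Per the submitters' processing notes, the tools were Trimmomatic, STAR 2.5.4b, RSEM and DESeq2, whose roles are not stated. Build, annotation and further scaling between libraries are likewise not given in the sources used for this report. Groups and replicate numbers came from the sample titles. No 2 columns were identical. Sequencing depth is unknown: the ratios of low values (0.1 to 0.5 FPKM) to those of another library fell on 1 common step for at most 9.75% of genes, so whole reads could not be recovered, and no test on counts was run. Precision rests on the spread between replicates.

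The 18906 genes that reached 1 FPKM in 3 or more libraries were tested. Using limma 3.58.1 (R 4.3.3), log2(FPKM + 1) of the 27 libraries was modelled by group means, with empirical Bayes moderation and a trend, and 16 contrasts were taken. Benjamini-Hochberg adjustment ran over all 18906 genes, with calls under 0.05. The fit was tested on simulated data. Ratios and shares were taken within a library and then averaged.

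The 6 genes and their names follow a list of identifiers, compared after removing the version number, and the genes, lists and tests were chosen with earlier results of these data known. In the RefSeq gene table (assembly SLM_r2.1, 41476 genes) 0 of the 34075 identifiers were found, although 5 of the 6 symbols are listed there under other identifiers. Other genes of the pathway and tissue markers were therefore not analysed here, nor were sequences. By the rule for further named genes, the 2 genes with the highest Pearson correlation over 27 libraries were taken for NCED1 and for UGT75C1, the synthesis gene and the breakdown gene with the highest mean, among genes kept with at least 10 FPKM in their highest group.

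Alternatives were a pseudocount of 0.1, no filter on low values, only genes with a mean of 5 FPKM or more, median-of-ratios size factors, TPM, quantile scaling, only the groups compared, a replicate block, and leaving out each library in turn.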

Additional observations from a re-analysis of the deposited data

Results flagged for a closer look

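In 13 results a difference was itself tested to differ between groups and was called by limma over all tested genes. Against the difference between 34 and 25 dpa in WT, that in dml2-3 departed by 3.55 for NCED2 (adjusted p = 1.73e-13), -0.53 for CYP707A1 (0.00636), -2.34 for CYP707A2 (1.34e-14), -1.74 for CYP707A3 (4.07e-10) and -2.30 for UGT75C1 (5.55e-05). That in the double mutant rin/tdr4-1 departed by 2.73 for NCED1 (adjusted p = 2.40e-06), 4.05 for NCED2 (2.50e-14), 1.20 for CYP707A1 (1.10e-06) and -1.29 for CYP707A2 (2.65e-10). These comparisons share the WT libraries. At 34 dpa the double mutant departed from the sum of the single mutants' differences from WT by 1.497 for NCED2 (adjusted p = 2.08e-07), 0.72 for CYP707A2 (1.88e-06), -2.27 for CYP707A3 (7.18e-12) and -1.86 for UGT75C1 (0.000565). Of all tested genes 69.1% were called in the first of these comparisons, 70.4% in the second and 67.7% in the third, so the calls alone do not set these genes apart.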

How the results depend on the processing

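Each of 96 results (6 genes in 16 contrasts) was recomputed under up to 35 alternatives, 27 of which left out 1 library. Under all of them 64 results kept their direction and their side of the threshold, 62 of these among the 75 called. CYP707A1 has a mean under 5 FPKM and was left out under that filter. Depth is unknown, so the precision of low values, above all NCED2 in WT at 34 dpa, rests on 3 libraries.

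Directions turned as follows, and the cause was not tested. With size factors, CYP707A3 turned to -0.32 in the double mutant against WT at 34 dpa and to -0.29 in the departure of its change with age from WT, and CYP707A1 to -0.13 in the departure from the sum. With TPM, CYP707A3 turned to 0.00027 in the double mutant against WT at 25 dpa and to 0.059 between ages in dml2-3, CYP707A1 to 0.0067 between ages in dml2-3, and NCED1 to 0.16 in the departure from the sum. With quantile scaling, CYP707A3 turned to -0.10 and 0.0035 in the double mutant against WT at 34 and at 25 dpa, to 0.091 between ages in dml2-3 and to -0.11 in the double mutant's departure with age. Under it CYP707A1 turned to 0.056 in dml2-3 against WT at 25 dpa, to 0.12 between ages in dml2-3 and to -0.023 in the departure from the sum, where NCED1 turned to 0.048, and NCED2 turned to -0.013 in nor-1. Without replicate 1 of WT at 25 dpa, CYP707A3 turned to 0.075 in the double mutant against WT at 25 dpa. Without replicate 3 of dml2-3 at 25 dpa, CYP707A3 turned to 0.023 between ages in dml2-3 (-0.21 to 0.023 with 1 library left out) and the NCED1 departure of dml2-3 with age to -0.033 (-0.033 to 0.88).

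Numbers of genes called of the 6 moved by over 1.5 times in 4 comparisons. In nor-1 against WT 6 were called, and 3 with quantile scaling. In dml2-3 against WT at 25 dpa 5 were called, and 2 in a fit to these groups alone. In the double mutant against WT at 25 dpa 2 were called, and 4 both in a fit to these groups alone and without replicate 3 of dml2-3 at 25 dpa, which gave 2 to 4 as the range with 1 library left out. Between ages in dml2-3 2 were called, 1 in a fit to these groups alone, and 1 to 4 with 1 library left out. The main fit called 61.3% of all genes in the first of these comparisons, 54.4% in the second, 32.7% in the third and 33.8% in the fourth. Without replicate 3 of dml2-3 at 25 dpa it was 42.8% in the third and 44.4% in the fourth. Shares of all genes under the other settings are not given here, so these counts say little by themselves.

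A replicate block with the replicate number changed 1 call, the departure of CYP707A3 in the double mutant with age, which stayed at 0.29 but passed the threshold (limma adjusted p = 0.0499, range over the alternatives 0.0129 to 0.541). Whether the numbers pair the libraries was not tested. Deviations of same-numbered libraries of different groups correlated at r of -0.173 to 0.139 over 108 pairs, 4 of them over 0.1. The median was 0.0062, against -0.0027 for pairs with different numbers. For each library the 3 replicate numbers were compared by its mean correlation with the libraries of other groups that bore them. Of the 27 libraries 13 correlated best with their own number, and how many would do so by chance was not worked out.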
